A study of Danio rerio with 8 samples.

Results

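Transcripts of 46 genes for neuropeptides, hypothalamic hormones and granins, chosen by symbol, were examined in whole brains of *psap* KO zebrafish and their WT siblings. A row was found for 43 of the 46 symbols among 22871 counted genes, and 3 symbols (*qrfp*, *sst3* and *scg2a*) had none. The tested fish were homozygous for a CRISPR-Cas9 allele of *psap*, the prosaposin gene, with a premature stop codon before the large saposin domains, and came from the mating of heterozygous carriers of an allele found in a single founder offspring. The reference fish were WT siblings, and both genotypes were untreated adults of the TuAB strain at 4 months post fertilization (mpf). The paper places this age at the symptomatic end stage, when *psap* KO fish were smaller, swam poorly and could be cachectic. The part of this state in the values below was not tested. Each genotype was measured in 4 libraries of total RNA depleted of ribosomal RNA, and each library pooled 3 brains. The study used both sexes and, after fin clipping, kept the genotypes in separate tanks that the paper describes as similar in density. An effect of the tank therefore cannot be told apart from that of the genotype. The sexes in each pool were not given in the sources used here.

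Neuropeptides are cut from larger precursor proteins in the secretory pathway, stored in dense-core vesicles and released to act on G protein-coupled receptors. In the hypothalamus they control feeding, arousal, stress, growth, water balance and reproduction, and many are made by small, well-defined groups of neurons. Granins are acidic proteins of the same vesicles, some of which are themselves cut into peptides. Several zebrafish precursors exist as paralog pairs that arose in the teleost genome duplication.

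Each *psap* KO library held 17562422 to 25127578 counts and each WT library 15332163 to 23480758 counts. *psap* transcript was at 381 to 450.4 CPM in *psap* KO and 342 to 416 CPM in WT brains and did not pass the test (log2 fold change 0.13, adjusted p = 0.206), which does not check the allele itself because counts do not read the sequence. The paper reports that RNA sequencing reads of adult *psap* KO brains carried the mutations. Of 38 pan-neuronal genes, 25 were lower and 5 were higher in *psap* KO brains, with a summed level of 9788 to 10332 CPM (counts per 1000000 counts of the library) against 12943 to 13621 CPM in WT brains. Microglia and macrophage genes, of which 30 of 32 tested were higher, summed to 3151 to 3812 CPM in *psap* KO and 478 to 609.6 CPM in WT brains. Skeletal muscle genes summed to 53.6 to 78.6 CPM in *psap* KO libraries, against 884 CPM in WT replicate 1 and 112 to 126 CPM in WT replicates 2 to 4, and of 13 photoreceptor and retina genes tested 1 (*rpe65a*) was higher. The defining neuronal genes *elavl3*, *snap25a* and *syn1* averaged 391, 1259 and 171 CPM in *psap* KO and 447, 1877 and 298 CPM in WT brains. In whole-brain RNA, fewer cells of a type and less RNA per cell cannot be told apart.

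More genes of the chosen list were lower than higher in *psap* KO brains. The list was made with earlier results of these data known. Of 29 tested neuropeptide genes outside it, 12 were higher and 6 lower, as described below. Of 41 members with enough counts for the test, 19 were lower (46.3%), 6 were higher (14.6%) and 16 did not pass. Calls came from edgeR's quasi-likelihood test, with p-values adjusted by Benjamini-Hochberg over all genes and a threshold of 0.05. Over all 21140 genes tested, 18.5% were lower and 22.3% were higher, 40.8% in all. The median log2 fold change, with *psap* KO set over WT throughout, was -0.37 for the members and 0.02 for all genes tested, and the median size of the change without its sign was 0.50 and 0.30. The libraries of the genotypes did not overlap for 16 of the members that were lower and 3 of those that were higher, against 18.3% and 21.9% of all genes tested (40.3% in either direction). A total of 3 members (*agrp*, *cart1* and *gnrh2*) rose by a log2 fold change of at least 1, and 3 (*pth2*, *cart2* and *oxt*) fell by at least as much. Over all genes tested, 9.37% rose and 1.14% fell by that size. For each gene described next, the values of a gene are CPM with TMM scaling factors in replicates 1, 2, 3 and 4 of a genotype in that order. Adjusted p-values come from edgeR's quasi-likelihood test over all genes. Standard errors (SE) were computed here as the size of the log2 fold change over the square root of that test's F statistic. CPM are not divided by transcript length, so levels were compared between genotypes and not between genes.

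**Figure D1:**
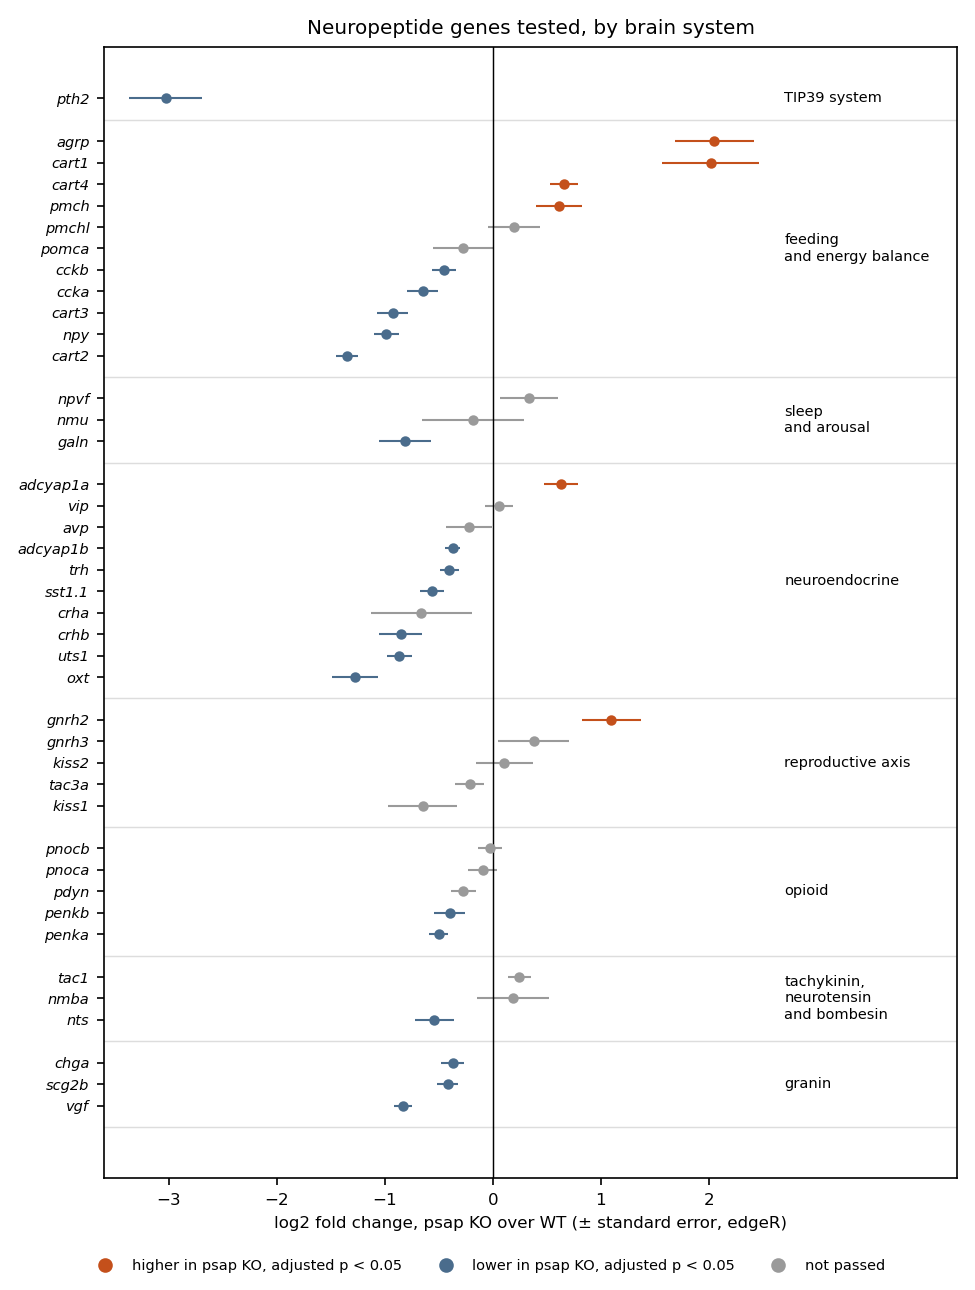
Log2 ratio (*psap* KO over WT) for the 41 neuropeptide genes tested, grouped by brain system, with bars of ± 1 standard error computed from edgeR's F statistic. Orange points were higher (6 genes), blue points lower (19 genes) and grey points did not pass an adjusted p of 0.05 (16 genes); *pth2* lies farthest to the left at -3.03 and *agrp* farthest to the right at 2.05.

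*pth2* had the largest fold change of any member. It encodes tuberoinfundibular peptide 39, a relative of parathyroid hormone that in zebrafish is made in the brain and responds to the presence of other fish. *pth2* (ENSDARG00000022951, chromosome 17 from 33495194 to 33499023 on the plus strand) was at 0.39, 0.836, 1.26 and 2.14 CPM in *psap* KO libraries, against 10.3, 8.98, 10.6 and 9.25 CPM in WT libraries. These values rest on 7, 19, 26 and 56 counts in *psap* KO libraries and 191, 133, 242 and 199 counts in WT libraries. The highest *psap* KO library lay far below the lowest WT library, and the *psap* KO libraries differed much more among themselves, with a coefficient of variation of 64.6% against 8.24% in WT. The log2 fold change was -3.03 (SE 0.338; adjusted p = 4.6e-05), an 8.16-fold lower level. It was -3.53 without *psap* KO replicate 4 and -2.77 without *psap* KO replicate 1. *pth2r*, the receptor gene for this peptide, was also lower at a log2 fold change of -0.52 (adjusted p = 0.00475), and was named after its value was seen.

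Genes of feeding and energy balance moved in both directions. Of 11 members, 5 were lower (*cart2*, *npy*, *cart3*, *ccka* and *cckb*), 4 were higher (*agrp*, *cart1*, *cart4* and *pmch*) and 2 (*pomca* and *pmchl*) did not pass. The share called was 81.8%, against 40.8% of all genes tested. Neuropeptide Y and agouti-related peptide both stimulate feeding, and in mice the same arcuate neurons make both. *npy* (ENSDARG00000036222, chromosome 19 from 20110699 to 20114149 on the minus strand) was at 18.5, 25.5, 28.3 and 25.4 CPM in *psap* KO libraries, against 47.3, 45.8, 53 and 47.4 CPM in WT libraries. Every *psap* KO library was below every WT library, with a log2 fold change of -0.99 (SE 0.114; adjusted p = 2.8e-05). *agrp*, which encodes an antagonist of melanocortin receptors (ENSDARG00000069089, chromosome 7 from 35080490 to 35083585 on the minus strand), was at 3.67, 3.74, 1.6 and 1.69 CPM in *psap* KO libraries, against 0.486, 0.607, 0.88 and 0.558 CPM in WT libraries. Its libraries did not overlap either, and among *psap* KO libraries replicates 1 and 2 stood above replicates 3 and 4. The log2 fold change of *agrp* was 2.05 (SE 0.365; adjusted p = 7.4e-04), from 66, 85, 33 and 44 counts in *psap* KO and 9, 9, 20 and 12 counts in WT libraries.

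*npy* and *agrp* were also set against each other within each library, a ratio that is free of library scaling. *agrp* took 16.6, 12.8, 5.37 and 6.23% of the summed *agrp* and *npy* counts in *psap* KO libraries, against 1.02, 1.31, 1.63 and 1.16% in WT libraries. The lowest *psap* KO share was above the highest WT share. The genes were paired for this after their values were seen, so no test was run. Each gene alone separated the genotypes, in opposite directions, so the separation of these shares restates those changes and is a description only. *pomca*, the proopiomelanocortin gene of hypothalamus and pituitary, was at 1.89, 1.45, 2.14 and 3.52 CPM in *psap* KO libraries, against 2.38, 2.5, 2.33 and 3.72 CPM in WT libraries. The libraries overlapped and replicate 4 was the highest of each genotype. Its log2 fold change was -0.27 (SE 0.283; adjusted p = 0.478). An antisense-strand gene, *AL590149.1*, overlaps *pomca*, and whether the counting used strand was not given in the sources used here. Genes of pituitary hormones and pituitary cells, measured because the pituitary also makes *pomca* transcript, summed to 7.52 to 16.3 CPM in *psap* KO and 8.14 to 15.1 CPM in WT brains over 10 genes with a row. None of the 8 of these that were tested passed with edgeR, DESeq2 or limma-voom, and 0 had an unadjusted p under 0.05. Only 1 reached a mean count of 50, and the log2 fold changes ran from -0.36 to 1.31. At this depth a difference could have been missed.

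The CART genes, which encode peptides of the cocaine- and amphetamine-regulated transcript family that reduce feeding in mammals, divided by paralog. *cart2* (ENSDARG00000045832, chromosome 25 from 19441920 to 19443421 on the minus strand) was at 15.2, 13.9, 14.4 and 17.9 CPM in *psap* KO libraries, against 34.2, 37.9, 42.5 and 42 CPM in WT libraries. Its log2 fold change was -1.35 (SE 0.103; adjusted p = 1.0e-06), the smallest adjusted p of any member. *cart3* was at 5.07, 3.52, 5.01 and 4.75 CPM in *psap* KO libraries, against 8.86, 7.76, 9.11 and 9.07 CPM in WT libraries. For both genes the genotypes did not overlap, and *cart3* had a log2 fold change of -0.93 (SE 0.144; adjusted p = 2.6e-04). *cart1* was at 3.06, 1.06, 3.5 and 4.44 CPM in *psap* KO libraries, against 0.432, 1.01, 0.484 and 1.07 CPM in WT libraries. *psap* KO replicate 2 fell within the WT range while the other *psap* KO libraries lay above it. The log2 fold change of *cart1* was 2.02 (SE 0.446; adjusted p = 0.0036), or 2.30 without that library. These values rest on 55, 24, 72 and 116 counts in *psap* KO and 8, 15, 11 and 23 counts in WT libraries. *cart4* was at 6.9, 6.56, 6.9 and 8.0 CPM in *psap* KO libraries, against 4.21, 4.32, 4.88 and 4.56 CPM in WT libraries. All *psap* KO libraries were above all WT libraries for *cart4*, with a log2 fold change of 0.66. A gene on the same strand, *CR936363.1*, overlaps *cart4* in the annotation. Within a library, *cart1* and *cart4* together took 33, 30.4, 34.9 and 35.4% of the counts of the 4 CART genes in *psap* KO brains, against 9.74, 10.5, 9.42 and 9.92% in WT brains. The genes were grouped by the direction of their own change, so the separation of these shares restates that change and is a description only.

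**Figure D2:**
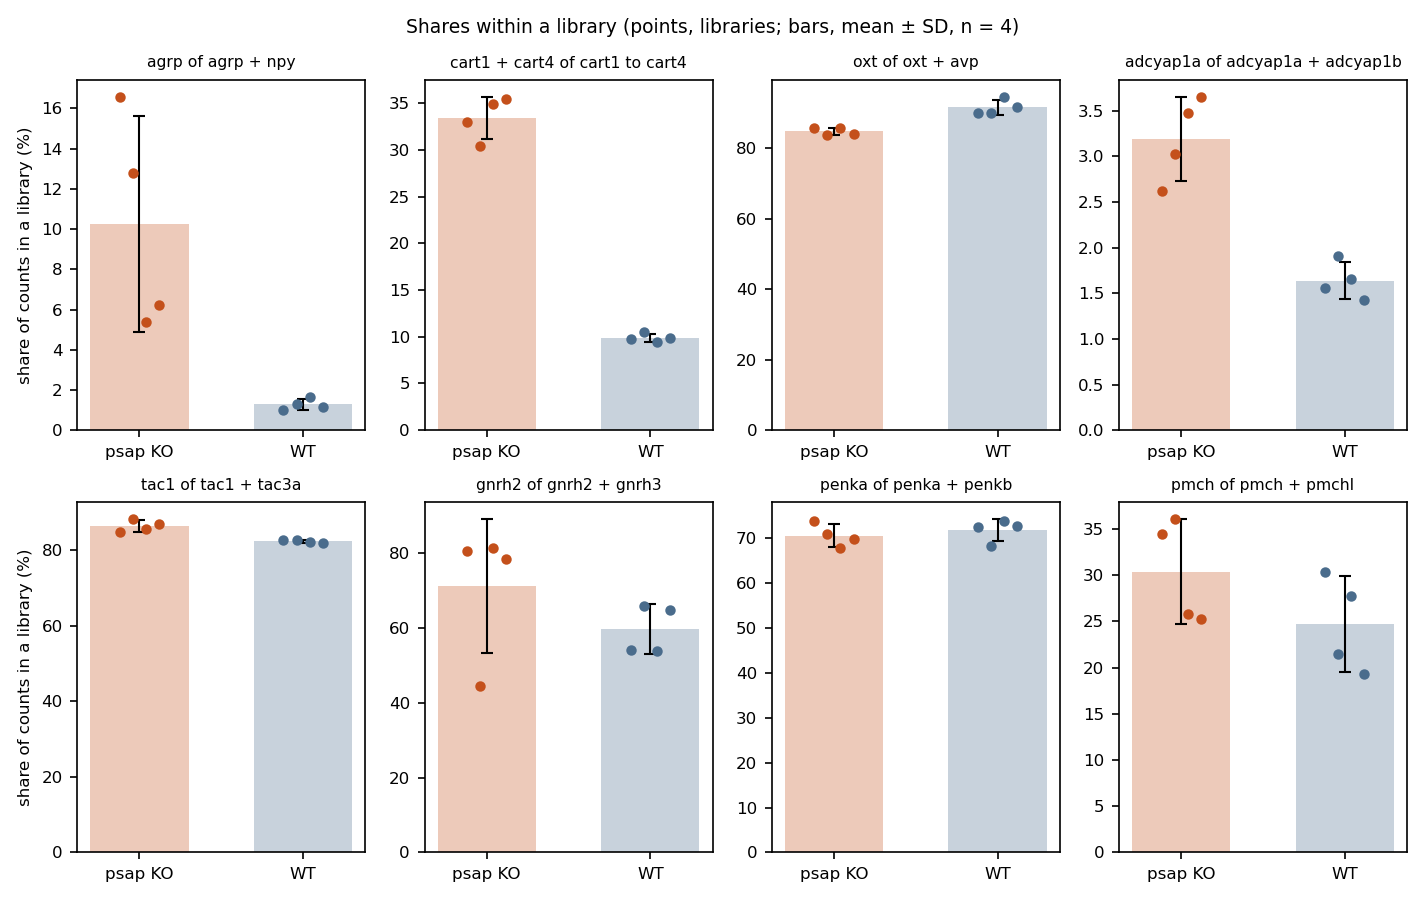
Share of counts (%) taken by 1 gene or pair of genes within a library, free of library scaling, in *psap* KO (orange, left) and WT (blue, right) libraries. Points are libraries, bars are means and whiskers are SD (n=4 each); of the 8 shares, those of *agrp*, CART, *adcyap1a* and *tac1* are higher and that of *oxt* is lower in every *psap* KO library, while those of *gnrh2*, *penka* and *pmch* overlap between genotypes. The shares of *agrp*, CART and *adcyap1a* restate the opposite changes of their genes.

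All 8 shares were formed after the values were seen, and no test was run on them. Those of *agrp*, CART and *adcyap1a* restate the opposite changes of their genes. The share of *tac1* in the summed *tac1* and *tac3a* counts was 85 to 88.3% in *psap* KO and 81.8 to 82.7% in WT brains, with no overlap. The shares of *gnrh2*, *penka* and *pmch* in their pairs overlapped between genotypes. *gnrh2* took 44.4 to 81.4% of the summed *gnrh2* and *gnrh3* counts in *psap* KO and 53.8 to 65.9% in WT brains. For *penka* with *penkb*, the *penka* share was 67.8 to 73.8% in *psap* KO and 68.2 to 74% in WT brains. For *pmch* with *pmchl*, the *pmch* share was 25.2 to 36.1% in *psap* KO and 19.3 to 30.3% in WT brains.

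Cholecystokinin is a satiety peptide of gut and brain that is also made by many forebrain neurons. *ccka* was at 7.35, 11.3, 10.5 and 13 CPM in *psap* KO libraries, against 16.4, 14.8, 17.2 and 18 CPM in WT libraries. *cckb*, its paralog on an unplaced scaffold of the annotation, was at 14.2, 17.4, 18 and 18.4 CPM in *psap* KO libraries, against 21.9, 20.4, 27.4 and 23.3 CPM in WT libraries. Both were lower in every *psap* KO library than in any WT library, with log2 fold changes of -0.65 and -0.45. Melanin-concentrating hormone acts in mammals on appetite and in fish also on skin color. *pmch*, 1 of its precursor genes, was at 5.18, 6.69, 3.6 and 6.36 CPM in *psap* KO libraries, against 3.29, 2.9, 4.49 and 3.49 CPM in WT libraries. These libraries overlapped, and the log2 fold change of 0.62 (adjusted p = 0.035) no longer passed without *psap* KO replicate 2 (adjusted p = 0.106), *psap* KO replicate 4 (0.0791), WT replicate 1 (0.0821), WT replicate 2 (0.0915) or WT replicate 4 (0.0762), and its adjusted p was 0.00824 to 0.106 over the alternatives. *pmch* lies within a region shared with *nup37* on the same strand and *parpbp* on the other. *pmchl*, the related gene, was at 9.86 to 18.8 CPM in *psap* KO and 7.56 to 14.6 CPM in WT brains and had a log2 fold change of 0.20.

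Among 3 tested peptides of sleep and arousal, only galanin passed the test (33.3%), against 40.8% of all genes tested. Galanin neurons of the preoptic area promote sleep in mammals and fish. *galn* was at 11, 10.4, 10.8 and 17.6 CPM in *psap* KO libraries, against 20.1, 15.1, 21.3 and 31.1 CPM in WT libraries. *psap* KO replicate 4 lay above WT replicate 2, and WT replicate 4 was the highest of all. The log2 fold change of *galn* was -0.81 (SE 0.239; adjusted p = 0.0223), and it did not pass without *psap* KO replicate 1 (adjusted p = 0.0674), replicate 2 (0.0602) or replicate 3 (0.0592), with an adjusted p of 7.3e-05 to 0.0674 over the alternatives. *npvf*, a precursor of RF-amide peptides, was at 1.22 to 1.56 CPM in *psap* KO and 0.756 to 1.48 CPM in WT brains and had a log2 fold change of 0.34 (SE 0.271; adjusted p = 0.349). *nmu*, the neuromedin U gene, was at 0.243 to 0.748 CPM in *psap* KO and 0.352 to 0.81 CPM in WT brains. *hcrt*, which encodes the wake-promoting hypocretin (orexin), held 4, 7, 12 and 16 counts in *psap* KO and 7, 4, 10 and 6 counts in WT libraries. It was left out of the test for low counts, and the genotypes overlapped. The symbol *qrfp*, for a further hypothalamic RF-amide peptide, had no row, but the reference table gives that name to a row listed as the clone gene *CR391921.1*, at 1.85 to 3.95 CPM in *psap* KO and 2.56 to 4.05 CPM in WT brains (log2 fold change -0.20, adjusted p = 0.576).

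Neuroendocrine precursors were mostly lower. Of 10 members with a row, 6 (*oxt*, *uts1*, *crhb*, *sst1.1*, *trh* and *adcyap1b*) were lower, 1 (*adcyap1a*) was higher and 3 (*crha*, *avp* and *vip*) did not pass. The share that was lower was 60%, against 18.5% of all genes tested. Oxytocin and vasopressin are nonapeptides of neurosecretory cells whose axons reach the posterior pituitary. *oxt* (ENSDARG00000042845, chromosome 5 from 72087619 to 72093253 on the plus strand) was at 15.6, 14.5, 12.4 and 21.7 CPM in *psap* KO libraries, against 31.4, 33.2, 54.4 and 37.1 CPM in WT libraries. WT replicate 3 was the highest and *psap* KO replicate 3 the lowest, with no overlap and a log2 fold change of -1.28 (SE 0.214; adjusted p = 0.00111). A ribosomal RNA gene (*RF00001*) lies on the opposite strand within *oxt*. *avp* was at 2.62, 2.82, 2.09 and 4.1 CPM in *psap* KO libraries, against 3.46, 3.71, 3.12 and 3.35 CPM in WT libraries. The *avp* libraries overlapped, and its log2 fold change was -0.22 (SE 0.213; adjusted p = 0.446). Within a library, *oxt* took 85.6, 83.8, 85.6 and 84.1% of the summed *oxt* and *avp* counts in *psap* KO brains, against 90.1, 89.9, 94.6 and 91.7% in WT brains. All *psap* KO shares were below all WT shares, in a pairing made after the values were seen.

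Peptides of the stress axis include corticotropin-releasing hormone and its relative urotensin 1. *crhb* was at 6.68, 9.77, 7.83 and 14.1 CPM in *psap* KO libraries, against 16.1, 18.5, 18.7 and 16.6 CPM in WT libraries. Its genotypes did not overlap, *psap* KO replicate 4 came closest to the WT range, and the log2 fold change was -0.85 (SE 0.195; adjusted p = 0.00485). *uts1* (ENSDARG00000014927, chromosome 20 from 38724575 to 38727396 on the plus strand) was at 20.7, 22.8, 25.1 and 29.8 CPM in *psap* KO libraries, against 41.2, 40.4, 51.1 and 46.6 CPM in WT libraries. Every *psap* KO library was below every WT library, with a log2 fold change of -0.86 (SE 0.116; adjusted p = 8.8e-05). *crha*, the paralog of *crhb*, held only 5, 19, 7 and 6 counts in *psap* KO and 8, 8, 15 and 22 counts in WT libraries. It did not pass at a log2 fold change of -0.66 (SE 0.47; adjusted p = 0.289).

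Somatostatin inhibits growth hormone release, and thyrotropin-releasing hormone stimulates pituitary cells. *sst1.1* was at 20.1, 23.2, 19.1 and 25.4 CPM in *psap* KO libraries, against 32.6, 36, 34.4 and 27.3 CPM in WT libraries. *trh* was at 26.4, 32.8, 29 and 32.7 CPM in *psap* KO libraries, against 42.2, 39, 40.8 and 37.8 CPM in WT libraries. No *psap* KO library reached the WT range of either gene, and the log2 fold changes were -0.56 and -0.40. PACAP, a peptide of the vasoactive intestinal peptide family, is encoded by paralogs that moved in opposite directions. *adcyap1a* was at 7.24, 8.8, 11.5 and 10.7 CPM in *psap* KO libraries, against 5.99, 6.75, 6.55 and 5.49 CPM in WT libraries. *adcyap1b* was at 269, 282, 320.1 and 283 CPM in *psap* KO libraries, against 378, 346, 390.2 and 378 CPM in WT libraries. The genotypes were separated for each, with log2 fold changes of 0.63 and -0.37. Within a library, *adcyap1a* took 2.62 to 3.65% of the summed counts of the pair in *psap* KO brains, against 1.43 to 1.91% in WT brains. The separation of these shares restates the opposite changes of the pair. A gene on the opposite strand, *yes1*, overlaps *adcyap1b*. *vip* was at 12.4 to 18.5 CPM in *psap* KO and 13 to 16.8 CPM in WT brains, with a log2 fold change of 0.06.

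**Figure D3:**
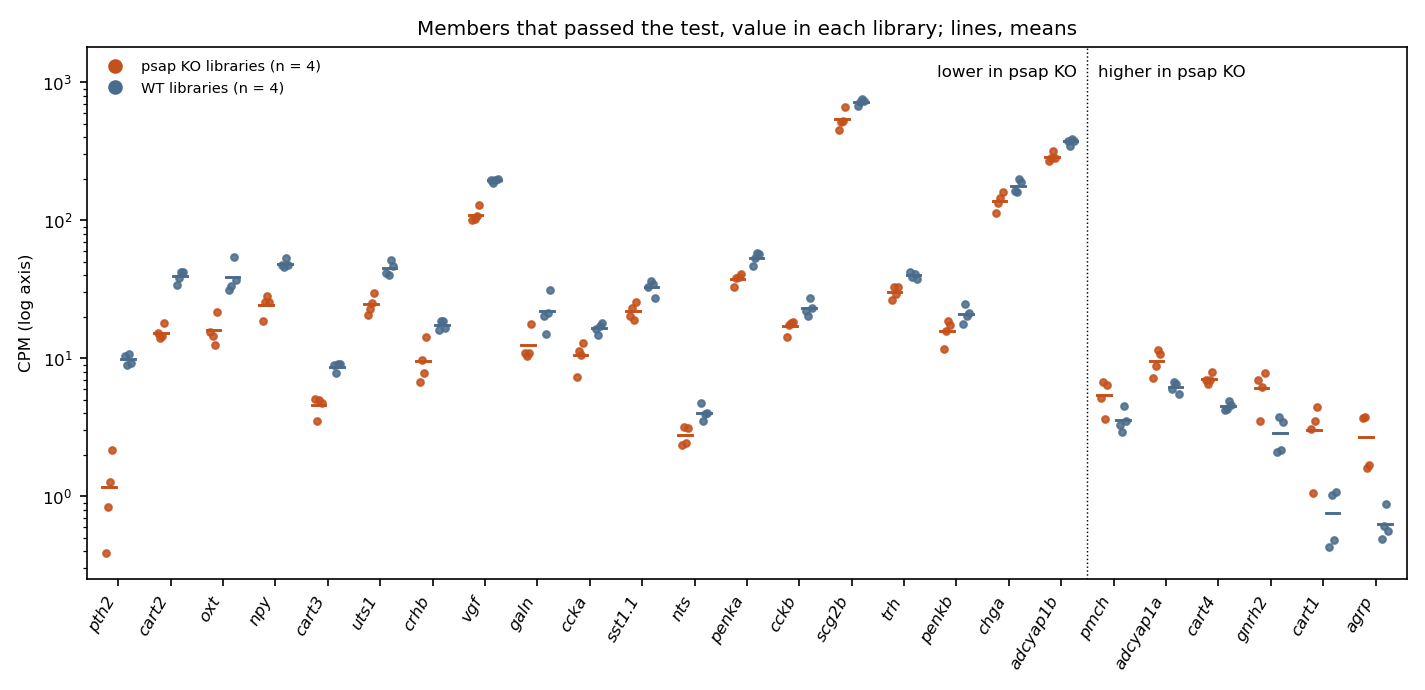
CPM (log axis) in each library for the 25 neuropeptide genes that passed the test, with *psap* KO libraries in orange to the left of WT libraries in blue (n=4 each), and lines at the means. Genes left of the dotted line were lower (19) and genes right of it higher (6) in *psap* KO brains; the libraries of *galn*, *penkb*, *chga*, *pmch*, *gnrh2* and *cart1* overlap between genotypes.

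In the reproductive axis 20% of 5 members were called, against 40.8% of all genes tested. Only *gnrh2* passed. It encodes the gonadotropin-releasing hormone form of midbrain neurons, whereas *gnrh3* is the form of the terminal nerve and hypothalamus in zebrafish. *gnrh2* (ENSDARG00000044754, chromosome 21 from 15824182 to 15828029 on the plus strand) was at 6.9, 3.52, 6.17 and 7.85 CPM in *psap* KO libraries, against 2.11, 3.78, 2.16 and 3.44 CPM in WT libraries. *psap* KO replicate 2 lay within the WT range and the other *psap* KO libraries above it, with a log2 fold change of 1.1 (SE 0.27; adjusted p = 0.00637), or 1.29 without replicate 2. *gnrh3* was at 1.67, 4.4, 1.41 and 2.14 CPM in *psap* KO libraries, against 1.78, 1.96, 1.85 and 1.86 CPM in WT libraries. Its highest value was in the same *psap* KO replicate 2, from 100 counts, and its log2 fold change of 0.38 did not pass and was -0.09 without that library. *kiss1*, a kisspeptin gene of the habenula in zebrafish, was at 1.00, 0.748, 1.7 and 0.996 CPM in *psap* KO libraries, against 1.08, 2.16, 2.16 and 1.58 CPM in WT libraries. Its log2 fold change was -0.65 (SE 0.322; adjusted p = 0.129), and passed only without *psap* KO replicate 3 (-0.92, adjusted p = 0.0465), with an adjusted p of 0.0465 to 0.286 over the alternatives. *kiss2*, the hypothalamic kisspeptin gene, and *tac3a*, a neurokinin B precursor, had log2 fold changes of 0.11 and -0.21 and did not pass.

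Of 5 opioid precursors, 2 were lower and 3 did not pass. The 40% called was near the 40.8% called of all genes tested. Enkephalins, dynorphins and nociceptin act on opioid receptors and their relatives. *penka* was at 32.8, 38.4, 39.1 and 40.6 CPM in *psap* KO libraries, against 46.4, 53, 57.5 and 56.6 CPM in WT libraries. All *psap* KO libraries were below all WT libraries, with a log2 fold change of -0.50 (SE 0.0902; adjusted p = 8.1e-04). *penkb* was at 11.6, 15.8, 18.6 and 17.4 CPM in *psap* KO libraries, against 17.6, 24.7, 20.2 and 21.2 CPM in WT libraries. These overlapped, and the log2 fold change of -0.40 (adjusted p = 0.0436) lost the call without *psap* KO replicate 1 (adjusted p = 0.0863), *psap* KO replicate 2 (0.0854), WT replicate 2 (0.123), WT replicate 3 (0.0712) or WT replicate 4 (0.0774), with an adjusted p of 0.00869 to 0.123 over the alternatives. *pdyn*, the prodynorphin gene, had a log2 fold change of -0.27 (SE 0.116; adjusted p = 0.0815), and passed without *psap* KO replicate 4 (-0.36, adjusted p = 0.0198), with an adjusted p of 0.015 to 0.208 over the alternatives. *pnoca* and *pnocb* had log2 fold changes of -0.09 and -0.03 and did not pass. *pdyn*, *pnoca* and *tac3a* each share part of their region with another annotated gene.

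Among 3 tested tachykinin, neurotensin and bombesin genes, only *nts* passed and was lower (33.3%), against 40.8% called of all genes tested. *nts*, the neurotensin gene, was at 2.34, 3.17, 2.43 and 3.14 CPM in *psap* KO libraries, against 4.7, 3.51, 3.96 and 4.00 CPM in WT libraries. The genotypes did not overlap, with a log2 fold change of -0.54 (SE 0.179; adjusted p = 0.0296). It did not pass without *psap* KO replicate 1 (adjusted p = 0.0734), *psap* KO replicate 3 (0.0796), WT replicate 1 (0.0881), WT replicate 3 (0.0557) or WT replicate 4 (0.051), with an adjusted p of 0.0193 to 0.0881 over the alternatives. *tac1*, the substance P precursor, was at 44, 49.8, 43.8 and 62.1 CPM in *psap* KO libraries, against 39.5, 41, 46.8 and 41 CPM in WT libraries. Its libraries overlapped and its log2 fold change was 0.25 (SE 0.11; adjusted p = 0.094). *nmba*, a neuromedin B gene, had a log2 fold change of 0.19 and did not pass. *grp*, the gastrin-releasing peptide gene, held 7, 9, 9 and 23 counts in *psap* KO and 4, 2, 7 and 12 counts in WT libraries and was left out of the test.

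All 3 granin members with a row were lower, against 18.5% of all genes tested. *vgf* (ENSDARG00000105529, chromosome 7 from 26224211 to 26230166 on the plus strand), whose transcript is induced by nerve growth factor and neuronal activity in rodents, was at 101, 102, 107 and 128 CPM in *psap* KO libraries, against 197, 186, 197 and 199.5 CPM in WT libraries. The highest *psap* KO library was well below the lowest WT library, with a log2 fold change of -0.83 (SE 0.0797; adjusted p = 6.4e-06). *scg2b*, which encodes secretogranin II, was at 452, 518, 523 and 661 CPM in *psap* KO libraries, against 675, 716, 754 and 733 CPM in WT libraries. *chga*, the chromogranin A gene, was at 113, 132, 144 and 161 CPM in *psap* KO libraries, against 162, 160.3, 200.4 and 189.5 CPM in WT libraries. The *scg2b* libraries did not overlap and those of *chga* did, in *psap* KO replicate 4. Their log2 fold changes were -0.42 and -0.37, and *chga* lost the call without WT replicate 3 (adjusted p = 0.0545, and 0.000745 to 0.0545 over the alternatives).

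Within a genotype, the members that were lower often had their extremes in the same libraries. Of these 19 genes, 14 had their lowest *psap* KO value in replicate 1 and 13 their highest in replicate 4, while in WT brains 11 had their lowest value in replicate 2 and 12 their highest in replicate 3. The same counts were not made over all genes tested, so whether this is particular to these genes is not known. Over all genes tested, *psap* KO replicate 4 also lay farthest from the other *psap* KO libraries. The summed level of the 43 members was 1303, 1449, 1502 and 1731 CPM in *psap* KO replicates 1 to 4, against 1944, 1971, 2172 and 2093 CPM in WT replicates 1 to 4. Total counts were also lowest in *psap* KO replicate 1 and WT replicate 2 and highest in *psap* KO replicate 4 and WT replicate 3, and the part of depth in these values was not tested. The coefficient of variation was larger in *psap* KO than in WT brains for 32 of the 41 members tested (medians 17.1% and 11.6%), against 53.3% of all genes tested (medians 12.3% and 11.3%).

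Neuronal transcripts of the same libraries were measured beside the members. The median log2 fold change of the 38 pan-neuronal genes was -0.41, against a median of -0.37 for the 41 members tested. Of these 41 members 17 lay at or below -0.41, namely 15 of the 19 that were lower and *crha* and *kiss1*, which did not pass. The summed member CPM equalled 13.3, 14, 14.6 and 17.2% of the summed pan-neuronal CPM in *psap* KO libraries, against 15, 15.2, 15.9 and 16% in WT libraries. These ratios overlapped between genotypes. Most of the summed member CPM came from *scg2b*, *adcyap1b*, *chga* and *vgf*, so the ratios mainly describe these genes. Their means were 538, 289, 138 and 109 CPM in *psap* KO and 720, 373, 178 and 195 CPM in WT brains. The neurofilament genes *nefla* and *nefmb* had the smallest p among pan-neuronal genes, ahead of *rbfox3a* and *syt2a*, with log2 fold changes of -1.95, -1.90, -0.86 and -0.92. The 5 pan-neuronal genes that rose were *nsfb*, *tubb5*, *uchl1*, *gap43* and *sncga*. The part of neuronal content and of added microglial RNA in the member values was not tested.

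Many genes of the machinery that makes and stores neuropeptides were lower as well. Of 26 genes of peptide processing and dense-core vesicles, with no member among them, 18 were lower (69.2%) and 8 did not pass. Over all genes tested 18.5% were lower, and of the 38 pan-neuronal genes 65.8% were. The median log2 fold change of the list was -0.34. In this list 0 were higher with edgeR, DESeq2 or limma-voom, and 1 was higher at an unadjusted p under 0.05 in edgeR. *pcsk1*, the prohormone convertase that cuts many of these precursors, averaged 150.4 ± 9.84 CPM in *psap* KO and 275 ± 19.6 CPM in WT brains (SD, n=4 each). *pcsk1nl*, which encodes the convertase inhibitor proSAAS, averaged 344 ± 36.6 CPM in *psap* KO and 585 ± 47.9 CPM in WT brains (SD, n=4 each). The *psap* KO libraries of both were below all WT libraries, and the log2 fold changes were -0.87 (SE 0.0719; adjusted p = 1.9e-06) for *pcsk1* and -0.77 for *pcsk1nl*. *ptprnb*, which encodes a membrane protein of dense-core vesicles, and *cadps2*, a priming factor for their release, had log2 fold changes of -0.54 and -0.66. The carboxypeptidase gene *cpe*, the convertase gene *pcsk2* and the granin gene *chgb*, named after their values were seen, were lower too, at -0.46, -0.48 and -0.57.

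Of 62 tested genes for receptors of the member peptides, 17 (27.4%) were lower, against 18.5% of all genes tested. The other 45 did not pass, and the median log2 fold change of the 62 was -0.27. In either direction 27.4% were called, against 40.8% of all genes tested, of which 22.3% were higher. The 84 listed symbols gave 65 rows. None were higher with edgeR or DESeq2 and 1 with limma-voom, and 1 was higher at an unadjusted p under 0.05 in edgeR. The count was also 1 without WT replicate 1 and without WT replicate 3. *oprm1*, the mu opioid receptor gene, averaged 14.4 ± 0.582 CPM in *psap* KO and 23.3 ± 1.47 CPM in WT brains (SD, n=4 each). *sstr1a* and *sstr2a*, for somatostatin receptors, and *mc5ra*, for a melanocortin receptor, had log2 fold changes of -0.81, -0.54 and -0.78. All *psap* KO libraries were below all WT libraries for each of the 4 genes.

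Peptide genes outside the chosen list moved in both directions. Of 29 tested on a list of other neuropeptides, 12 (41.4%) rose, 6 (20.7%) fell and 11 did not pass, with a median log2 fold change of 0.35. Over all genes tested, 22.3% rose and 18.5% fell. *npb*, the neuropeptide B gene, was at 7.96, 7.7, 7.34 and 7.97 CPM in *psap* KO libraries, against 22.5, 21, 21.7 and 19.3 CPM in WT libraries. The genotypes did not overlap for *npb*, and its log2 fold change was -1.45 (SE 0.091; adjusted p = 2.1e-07). *cort*, a gene of the somatostatin and cortistatin family, and *ucn3l*, a urocortin 3 gene of the stress peptide family, had log2 fold changes of -0.96 and -1.44. *rln3a*, a relaxin 3 gene, averaged 15.1 ± 2.45 CPM in *psap* KO and 7.25 ± 1.08 CPM in WT brains (SD, n=4 each), and its log2 fold change was 1.06. Of the genes on this list that moved, *edn1*, *apln*, *adma*, *nucb2a* and *nucb2b* are also made by vascular, glial or many other cells, and 3 of these (*adma*, *nucb2a* and *nucb2b*) were among the 12 that rose. Transcription factors of the hypothalamus mostly did not pass, with a median log2 fold change of -0.01. Of 45 tested genes 2 (*ascl1b* and *nkx2.2a*) were higher and 3 (*pou3f2b*, *pou3f2a* and *arnt2*) were lower. Together they made up 11.1% of these transcription factors, against 40.8% called among all genes tested. The count of those that were lower was 0 without *psap* KO replicate 2, 2 without *psap* KO replicate 4 or WT replicate 3, and 1 without any other single library. *ascl1b*, a proneural gene also of progenitor cells, has a pair of rows, and the one that passed (ENSDARG00000009702) averaged 34.5 ± 6.4 CPM in *psap* KO and 4.00 ± 1.9 CPM in WT brains (SD, n=4 each).

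**Figure D4:**
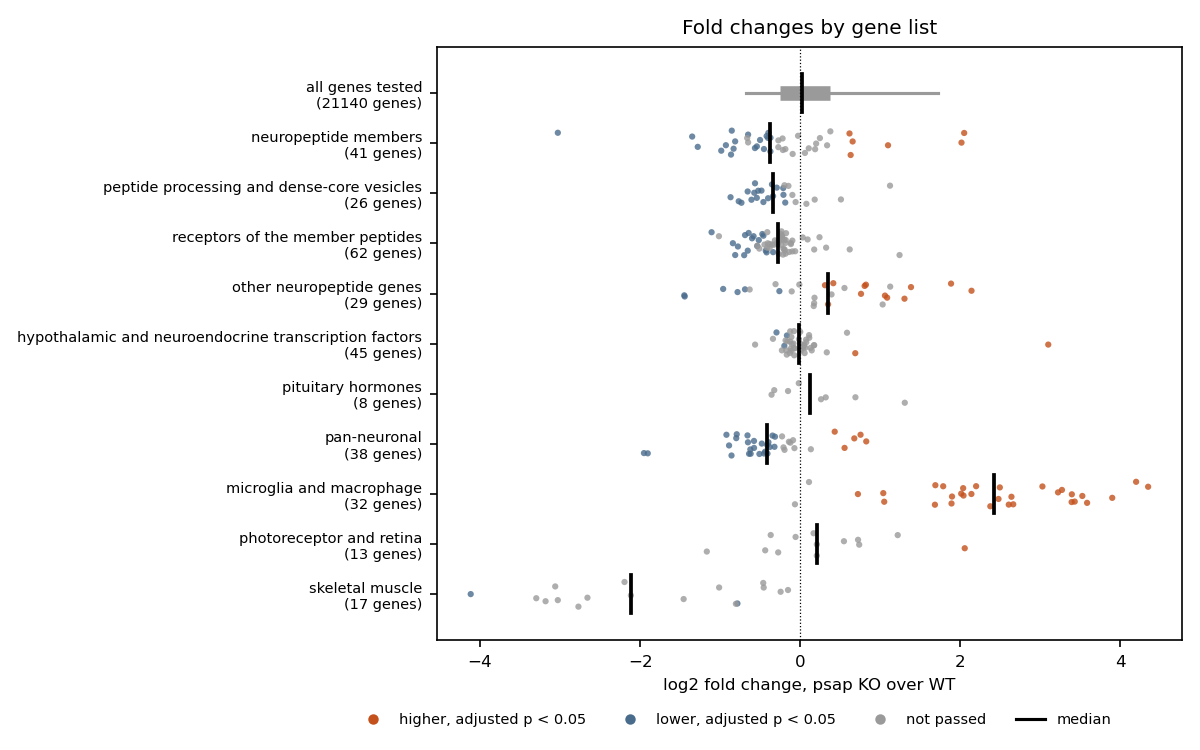
Log2 ratio (*psap* KO over WT) for all genes tested (thick bar, middle 50% of genes; thin line, 5th to 95th percentile) and for each gene of the lists (points; vertical jitter has no meaning). Black lines are medians, at -0.37 for the neuropeptide members, -0.34 for peptide processing, -0.27 for receptors, 0.35 for other neuropeptides, -0.41 for pan-neuronal genes and 2.43 for microglia and macrophage genes.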

How the data were processed

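Members and gene lists were chosen with earlier results of these data known. Per the labels, methods and submitters' processing notes, optical duplicates were removed by the authors, adapters were cut with cutadapt 1.16 and reads mapped with STAR 2.6.1b to the genome named Zv10 in the methods. They counted reads per gene with featureCounts 1.6.3 and ran DESeq2 1.22.2. The deposited raw counts per gene of 8 libraries were used here. Gene symbols and positions are those of the deposited annotation, which names no build. The authors' fold changes, p-values, normalized values and size factors were not used.

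The fit used edgeR 4.0.16 in R 4.3.3 with TMM scaling, filterByExpr by genotype (1731 genes left out, 21140 tested), a robust quasi-likelihood fit and a Benjamini-Hochberg adjusted p of 0.05. CPM are counts per 1000000 with TMM factors, computed here. All members were accounted for. Members that passed are given by library, with standard error and adjusted p for the 12 largest changes and for the smallest p of each brain system. Of members that did not pass, the largest change in each system is given, and of each other list the 4 genes with the smallest p could be named. The code was tested on simulated data. Alternatives were RLE and upper-quartile scaling, no filter, a mean count of at least 50, limma-voom (limma 3.58.1), DESeq2 1.42.0, a replicate block and leaving out each library. Libraries are pools of fish, so p-values measure the spread between pools. No pair of replicates agreed within sampling noise (chi-square over degrees of freedom 5.22 to 30.3). Over all genes tested, *psap* KO replicate 4 lay farthest from the other *psap* KO libraries, at 17.9 to 30.3, against 7.25 to 9.08 among those. Among WT libraries, replicates 1 and 2 stood at 5.33 and replicates 3 and 4 at 5.22, against 10.4 to 13.8 for other pairs.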

Additional observations from a re-analysis of the deposited data

Results flagged for a closer look

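In groups of 4 libraries, the highest or lowest value was set against the others by its gap as a share of the range by Dixon's test at its 95% critical value. Over 158 such groups of 79 genes, 11 libraries stood apart, and chance alone gives about 1 in 20 groups. Members made up 86 of the groups, and their flags, given next, were about as many as that rate gives. Among the members, *pomca* was at 3.72 CPM in WT replicate 4 and between 2.33 and 2.5 CPM in the others of that genotype. *galn* was at 17.6 CPM in *psap* KO replicate 4 and at 10.4 to 11 CPM in the other *psap* KO libraries, and its log2 fold change was -1.03 without that library. *pnocb* was at 10.2 CPM in WT replicate 1 and between 12.8 and 13.2 CPM in the rest. *grp* was at 0.881 CPM in *psap* KO replicate 4, against 0.39 to 0.437 CPM in the others of that genotype, from 23 counts. Among genes of the other lists, *itgb2* was at 106 CPM in *psap* KO replicate 4, against 82.3 to 83.5 CPM in the others of that genotype. *ttn.1* was at 10.5 CPM in *psap* KO replicate 1, against 5.2 to 5.94 CPM in the others of that genotype. In WT replicate 1, *ttn.1* was at 302 CPM, *mylpfa* at 22 CPM and *ckmb* at 26.2 CPM, against 37.1 to 67.5, 0.484 to 1.35 and 0.484 to 1.62 CPM in the other WT libraries. *pcsk1nl* was at 514 CPM in WT replicate 2, against 603 to 613 CPM, and *pou3f2b* at 56.1 CPM in WT replicate 4, against 48.9 to 49.7 CPM.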

How the results depend on the processing

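Over 15 alternatives, 4 to 6 members were higher and 16 to 20 were lower, and their median log2 fold change was -0.44 to -0.28. The count of 4 came with the filter at a mean count of 50, which tests 32 members and leaves out *agrp* and *cart1*. Over all genes, 4100 to 5080 were higher and 3362 to 4429 lower. Of the 25 members called, 20 kept the call and its direction in every alternative that tested them, and 5 (*chga*, *galn*, *nts*, *penkb* and *pmch*) did not. Besides the left-out libraries given above, *penkb* missed the threshold with upper-quartile scaling (adjusted p = 0.0561) and a filter at a mean count of 50 (0.0523), and *pmch* with limma-voom (0.0566) and the replicate block (0.0641), while *pdyn* passed with the block (0.015). The deviations of libraries with the same replicate number correlated at 0.06, 0.07, 0.13 and 0.17, and those with different numbers at -0.12 to 0.07. The highest of the latter was 0.0735, for *psap* KO replicate 2 with WT replicate 1. Next came 0.0705, for *psap* KO replicate 1 with WT replicate 2. The paper states that WT and KO samples were handled in alternation. These values do not decide whether the numbers mark pairs or a shared batch. The sources used here do not call them pairs, so the main fit took genotype alone. With the block, 4908 genes were higher and 4429 lower, 5 and 20 of them members, against 4720 and 3903 genes in the main fit. Other neuropeptide genes that rose numbered 6 with the filter at a mean count of 50, which tests 15 of them. Hypothalamic transcription factors that fell numbered 1 with upper-quartile scaling and 1 with that filter, and 0 to 2 without 1 library. Receptors that rose numbered 1 with limma-voom and 1 with the block, and 0 to 1 without 1 library. With the block, 1 peptide processing gene and 2 photoreceptor genes were higher, and without 1 library 1 to 2 photoreceptor genes were higher and 0 to 1 lower. The causes were not tested. Depth limits *hcrt*, *grp*, *crha* and *nmu*, each with at most 23 counts in every library.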
